A study of Mus musculus with 16 samples.

Results

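The H3K36me3 experiment compared mesenchymal stem cell (MSC) lines without Dicer with lines that kept it. Its members were chosen by the antibody and genotype in the labels: 2 DicerKO libraries (Dicer -/-) and 2 DicerWT libraries (Dicer f/f, floxed and intact), 4 of the 16 samples of the series. All were monoclonal, immortalized murine MSC lines of C57BL/6 background grown in Alpha-MEM with serum, with no treatment or time point. Each genotype is thus represented by clonal lines, and the labels do not say whether replicates 1 and 2 were separate lines, cultures or repeat preparations. Dicer, a ribonuclease, processes precursor hairpins into microRNAs, and the series title names its product let-7 and the let-7 target Nr6a1. Peaks on chromosomes 1 to 19 were used, in mm9 coordinates, and peaks of a library less than 5 kb apart were joined into domains. This gave 10730 and 12153 domains for KO replicates 1 and 2, and 11406 and 12890 for the WT replicates. Pairs of values below follow that replicate order. Joining the peaks of all 4 lists in the same way gave 13602 joint domains, the units of the comparisons below. No gene was assigned to any of them, because the gene table at hand was for another mouse build, and neither the Dicer deletion nor MSC marker genes were checked here.

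H3K36me3 is written by SETD2, a methyltransferase that travels with elongating RNA polymerase, and so marks the bodies of transcribed genes rather than their promoters. It recruits factors such as the DNA methyltransferase DNMT3B, which keep start sites inside genes silent. Promoters of the same genes carry H3K4me3. H3K36me3 hinders Polycomb repressive complex 2, which writes H3K27me3 on silent developmental genes, so that both marks seldom share a nucleosome.

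H3K36me3 formed broad domains in both genotypes, and the WT replicate 2 library stood apart with the widest ones. Covered length, the base pairs inside peaks, was 86.5 and 108 Mb for KO, whereas it was 106 and 173 Mb for WT. The median domain was 5025.5 and 5312 bp long in KO and 5761.5 and 7948 bp in WT. KO replicate 2 and WT replicate 1 were close to each other in covered length, while WT replicate 2 lay far above both. Domains of 20 kb or more numbered 1708 and 2143 for KO against 2119 and 3320 for WT, and those of 100 kb or more 16 and 24 in KO and 33 and 123 in WT. The long domains carried much of the mark: 55.4% and 59.1% of the summed domain length in KO and 60.7% and 70.2% in WT lay in domains of at least 20 kb. Peaks filled 77.7% to 79.4% of the domain length in 3 libraries and 85.0% in WT replicate 2.

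Both KO libraries lay below both WT libraries in median domain length, while the genotypes overlapped in covered length and in domain number. Mean log2 ratios (KO over WT) were -0.48 for covered length, -0.09 for domain number and -0.39 for median domain length, and two-sided exact permutation tests over 2 libraries per genotype gave p = 0.667, 0.667 and 0.333 in that order. The smallest p that 2 libraries against 2 allow is 0.333, so no such test could pass a threshold of 0.05. SDs of the log2 covered length were 0.231 in KO and 0.500 in WT, so the difference of -0.48 was about as large as the WT SD. An SD of 2 values is smaller than the gap between them, so the WT libraries lay further apart than the genotype means. Without WT replicate 2 the difference shrank to -0.13. Scores of 3100 or more were also most frequent in WT replicate 2, at 7.51% of its peaks against 1.34% to 2.43% elsewhere. The lists hold no read counts, and what part depth or enrichment had in these widths was not tested. The join distance fell where gaps were thinning out, with 1012 to 1325 gaps of 4 to 5 kb per library, which were closed, and 767 to 1040 of 5 to 6 kb, which were not.

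**Figure D1:**
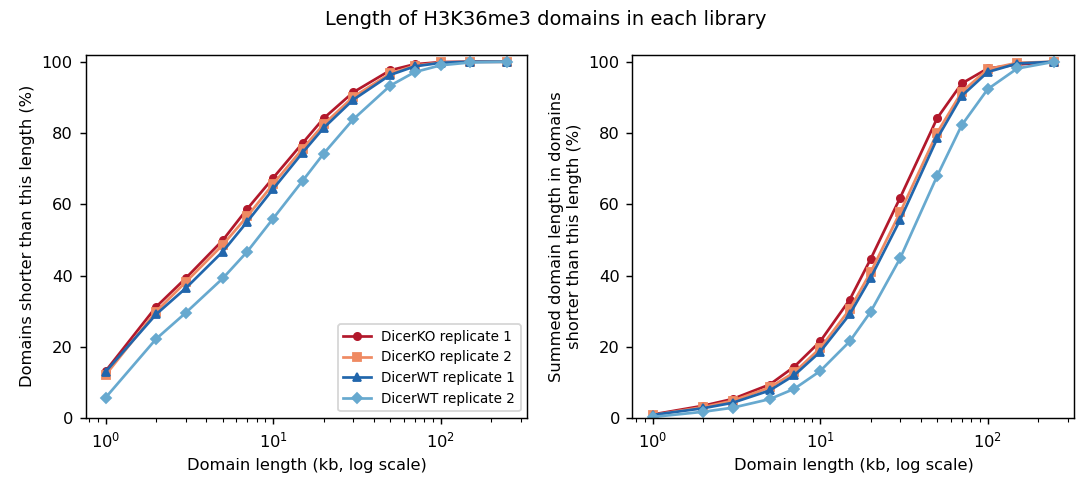
Cumulative share of H3K36me3 domains (left) and of their summed length (right) against domain length in kb on a log scale, 1 line per library. WT replicate 2 lies to the right of the other 3 libraries, with 74.2% of its domains shorter than 20 kb against 81.4% to 84.1% in the others.

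Most long joint domains were listed in every library and most short ones were not. A library listed a domain when it had 1 bp of peak there, which a longer joint domain meets more easily. Of the 13602 joint domains, 6369 (46.8%) were listed in all 4 libraries, with a median length of 20110 bp against 7834 bp over all. Among joint domains of 50 kb or more, 94.0% were listed in every library, against 9.37% of those under 5 kb. Peaks covered 44.1% and 55.0% of the length of that longest class in KO, and 55.9% and 80.5% in WT. Being listed thus does not mean that a library marked the whole domain. WT replicate 2 alone accounted for 2695 joint domains, whose median was 1546 bp. By contrast, 326 were listed only in KO replicate 1, 404 only in KO replicate 2 and 206 only in WT replicate 1, with medians of 1058, 1023.5 and 956 bp. In domains listed in all 4 libraries the best peak stood at a median score percentile of 80.2 to 87.8 within its own list. A longer domain can hold more peaks, which by itself raises the rank of the best one. The number of peaks was not matched, so these percentiles do not show that the peaks of such domains were stronger.

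Long domains were more often continuous in WT replicate 2 than in the other 3 libraries. The 3202 joint domains of at least 20 kb that every library listed were a single domain in 91.5% of cases in WT replicate 2. In KO replicates 1 and 2 and in WT replicate 1 that share was 49.6%, 52.7% and 53.6%. On this measure too, WT replicate 1 resembled the KO libraries more than it resembled WT replicate 2. Joint domains therefore take much of their outline from WT replicate 2.

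The 3 longest joint domains showed how far single libraries could differ. At chr17:75580411-75793162, peaks covered 149002 and 115596 bp of 213 kb in KO versus 169128 and 197611 bp in WT. At chr17:44739705-44951214 they covered 110072 and 142411 bp of 212 kb in KO compared with 141634 and 206949 bp in WT. Both were marked in every library, and replicates of a genotype differed by more than 20 kb. The longest, chr4:64787966-65018899, was covered over 182930 of its 230934 bp in WT replicate 2 and had no H3K36me3 peak in the other 3 libraries, WT replicate 1 included. H3K4me3 peaks were listed within 5 kb of that domain in all 4 libraries, over 3936 and 6033 bp in KO against 3594 and 5780 bp in WT.

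Within domains listed in all 4 libraries the direction of the difference turned with the scaling. In base pairs covered, both KO libraries lay below both WT libraries in 2399 of 6369 domains (37.7%) and above them in 131 (2.06%). When each library's values were divided by its total covered length, KO lay below WT in 16.8% of these domains and above it in 25.3%. A lower KO level across shared domains was thus not separable from the larger total of the WT lists. The loci described next were taken from the authors' difference lists.

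The difference lists held 2068 and 996 H3K36me3 peaks in KO and 2930 and 3443 in WT. The labels do not name their control, which is read as the other genotype of the same number. In 1 or 2 joint domains a library's list met the opposite genotype's list of the same number, and in 29 or 41 that of the other number. Every KO-higher or WT-higher call depends on this reading. Between 81.1% and 96.2% of the difference peaks had the same coordinates as a peak that the library listed against whole-cell extract.

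A joint domain was called KO-higher when it held a difference peak of both KO libraries and none of either WT library, and WT-higher in the reverse case. By this rule 190 of 13602 joint domains (1.40%) were KO-higher and 425 (3.12%) WT-higher. The rule asks for no peak against whole-cell extract in the same library. Such a peak was listed in 181 and 184 of the KO-higher domains in KO, and in 388 and 425 of the WT-higher domains in WT. Some calls thus rest on stretches that a library did not list against extract. The shares called in single replicates were larger, with 1110 KO-higher domains (8.16%) in replicate 1 and 589 (4.33%) in replicate 2. On the WT side they were 1231 (9.05%) and 1851 (13.6%). Of the KO-higher domains of replicate 1, 17.2% were called in replicate 2 as well, and of the WT-higher ones 34.5% were. Most single-replicate calls thus did not recur, in either direction. The least overlap that made a call was 5 bp on the KO side and 50 bp on the WT side, and the median of the lesser replicate was 2939.5 and 2724 bp.

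WT-higher domains outnumbered KO-higher ones under each setting that kept all 4 libraries, but the counts moved. With scores of at least 160 there were 65 KO-higher and 149 WT-higher domains. When each list against whole-cell extract was cut by score to the covered length of the shortest, there were 186 and 238. This alternative was chosen after the data were examined. The difference lists, which decide these calls, were not cut and stayed unequal, with 5.93 and 2.77 Mb in KO and 7.35 and 11.1 Mb in WT. The larger WT-higher count was thus not tested with difference lists of equal length. Leaving out 1 library of a genotype leaves a single difference list on that side and raised its count. Without KO replicate 2 there were 1069 KO-higher domains and without KO replicate 1 there were 569, both above the WT-higher count. On the WT side the counts were 1814 without WT replicate 1 and 1292 without WT replicate 2.

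Called domains were longer than most, more so on the WT side. KO-higher domains had a median length of 11118.5 bp and WT-higher domains 21595 bp. WT-higher calls made up 1.12% of joint domains under 5 kb, 4.93% of those of 20 to 50 kb and 9.48% of those of 50 kb or more. KO-higher calls rose less, from 0.933% to 2.20%. A call needs only 1 bp of difference peak in each replicate, which a longer domain meets more easily. The rise with length therefore follows in part from the rule. When difference peaks had to cover at least 10% of the domain in both replicates, a rule that asks more base pairs of longer domains, WT-higher calls made up 1.08% of domains under 5 kb. In the longer classes they made up 2.67%, 2.63%, 2.46% and 2.40%, in order of length. The WT-higher share thus still rose from the shortest class to the next and was nearly level above it. KO-higher shares under this rule were 0.877% under 5 kb and 1.66%, 1.54%, 1.21% and 1.4% in the longer classes. The WT-higher total was then 269, beside 167 KO-higher domains.

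**Figure D2:**
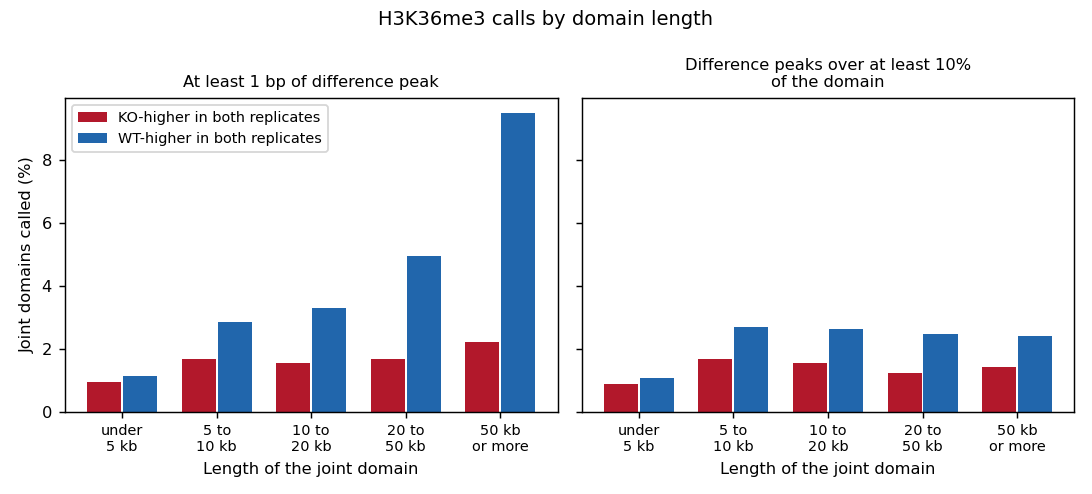
Share of joint domains (%) called KO-higher or WT-higher in both replicates, by domain length, for calls that need 1 bp of difference peak (left) and for calls whose difference peaks cover at least 10% of the domain (right). The WT-higher share of the longest class is 9.48% on the left and 2.40% on the right.

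The leading KO-higher domains were ranked by the base pairs inside difference peaks in the replicate that had fewer. They held long, well covered stretches in both KO libraries. At chr18:89143317-89301114, peaks covered 99752 and 128944 bp in KO versus 26431 and 69060 bp in WT, and difference peaks 68238 and 61551 bp. At chr12:25666479-25744686 the covered lengths were 59960 and 68184 bp in KO against 27748 and 44372 bp in WT. At chr12:31951655-32034886 they were 45569 and 59220 bp against 18193 and 26318 bp. These 3 domains were marked in both genotypes, and KO and WT did not overlap at any of them. The fourth and the sixth, chr13:118014238-118066418 and chr17:74239091-74297335, had no H3K36me3 peak in either WT library and were covered over 32146 and 32471 bp and over 37163 and 28122 bp in KO.

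The other KO-higher leaders were of both kinds. At chr17:49588335-49636076, peaks covered 29633 and 33571 bp in KO, nothing in WT replicate 1 and 4680 bp in the other WT library. At chr15:41630112-41693236 they covered 41361 and 43585 bp in KO compared with 6345 and 25863 bp in WT. At chr16:22058303-22089416 the mark was listed over 22359 and 25375 bp in KO and in neither WT library. In all 8 leaders both KO libraries were covered over more base pairs than both WT libraries. Over the 190 KO-higher domains this held in 125 (65.8%), against 360 of all 13602 joint domains (2.65%). Difference lists and covered lengths come from the same libraries, so this describes the calls and adds no test.

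The leading WT-higher domains were longer still, and WT replicate 2 covered more of 6 of the 8 than WT replicate 1 did. A neighbouring pair on chromosome 19 led the ranking. At chr19:28638315-28751730, peaks covered 59042 and 103610 bp in WT, 0 bp in KO replicate 1 and 13012 bp in KO replicate 2. At chr19:28477876-28631720 they covered 33557 and 127064 bp in WT and 0 and 4796 bp in KO. Difference peaks of WT replicate 1 covered 70753 bp of the former and 52886 bp of the latter, more than its peaks against extract did. The third domain, chr4:111089725-111134361, was covered over 36486 and 36809 bp in WT, nearly alike in both replicates, and had no peak in KO. At chr4:89020545-89150024 the covered lengths were 75455 and 94533 bp in WT and 13371 and 14894 bp in KO. On chromosome 19 the WT replicates differed widely, and on chromosome 4 they were closer to each other.

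The remaining WT-higher leaders lay on chromosomes 13, 2, 9 and 3. At chr13:55314475-55428096, peaks covered 54856 and 109181 bp in WT and 1393 and 17195 bp in KO. At chr2:65295845-65376351 they covered 71044 and 39544 bp in WT, 10639 bp in KO replicate 1 and 0 bp in KO replicate 2. At chr9:98935289-99036688 the lengths were 75822 and 83394 bp in WT and 21082 and 10153 bp in KO. The eighth, chr3:121678111-121719947, was listed over 37566 and 26288 bp in WT and in neither KO library. KO and WT did not overlap at any of the 8. Over all 425 WT-higher domains the groups were apart in the same way in 367 (86.4%), against 27.5% of all joint domains, where both KO libraries lay below both WT libraries.

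**Figure D3:**
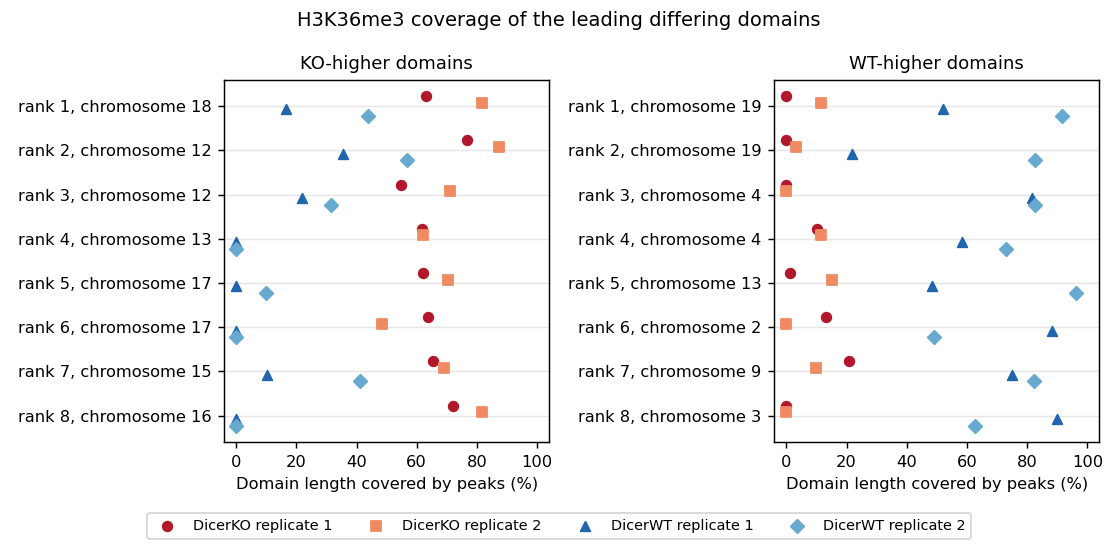
Share of each domain's length covered by H3K36me3 peaks (%) in the 4 libraries, for the 8 leading KO-higher (left) and WT-higher (right) domains in rank order, named by chromosome. In each of these 16 domains both libraries of the higher genotype lie above both libraries of the other, and in 3 KO-higher and 2 WT-higher domains the lower genotype is at 0 in both libraries.

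Replicates differed mostly in the same stretches on the KO side and less so on the WT side. Difference peaks of both replicates shared base pairs in 168 of 190 KO-higher domains (88.4%) and in 321 of 425 WT-higher domains (75.5%). Difference peaks of single replicates covered medians of 45% and 42.2% of a KO-higher domain and 19.7% and 39.5% of a WT-higher one. The stretch that differed in both covered a median of 26.1% of a KO-higher domain and 9.40% of a WT-higher one. It reached 50% of the domain or more in 54 KO-higher and 49 WT-higher domains, and was below 10% in 49 and 216. At chr18:89143317-89301114 only 15096 bp differed in both replicates, although more than 60 kb differed in each. At chr4:111089725-111134361, in contrast, 34077 bp did, most of the domain.

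Inside shared domains the genotypes differed more in the share covered than in the span from first to last peak. Among the 81 KO-higher domains listed in all 4 libraries, peaks covered a median of 69.2% and 71.2% of the domain in KO and 33.6% and 57.3% in WT. From first to last peak these domains still spanned 71.9% and 95.8% of their length in WT. Among the 153 such WT-higher domains, the covered share was 14.6% and 28.6% in KO and 55.9% and 87.1% in WT, and the span in KO was 58.3% and 75.2%. The span in the higher genotype was 96.4% and 98% in KO and 93.6% and 100% in WT. In both directions the first and last peaks of the lower genotype thus still lay far apart. How peaks were spread between them was not measured. The higher WT-higher values in WT replicate 2 sit on a library that covered 82.3% of all domains listed in every library, against 55.8% in WT replicate 1.

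Domains listed in both libraries of a genotype and in neither of the other numbered 138 for KO (1.01%) and 749 for WT (5.51%). This order depended on the length of the lists. With every list cut by score to the covered length of the shortest, the counts turned to 648 KO-only and 142 WT-only domains. Cutting kept every peak of KO replicate 1, 47.1% of those of KO replicate 2, 53.4% in WT replicate 1 and 21.7% in WT replicate 2. Neither count therefore showed that a genotype has more domains of its own. Most were short, with medians of 2618 bp in KO and 5043 bp in WT. KO-only domains had their best peak at a median percentile of 41.6 and 36.4 in the KO lists. For WT-only domains these percentiles were 25.6 and 50 in the WT lists. Of the KO-only domains 58 were also KO-higher, and of the WT-only domains 153 were WT-higher.

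The longest of them were far longer than these medians. Among KO-only domains, after the chromosome 17 and 13 domains given above, came chr6:137424241-137465662, covered over 35540 and 22680 bp in KO, and chr7:138087786-138119626, covered over 19700 and 5178 bp. In the latter most of the covered length was in KO replicate 1. On the WT side the 4 longest were covered mostly in WT replicate 2. At chr8:96337270-96460016, peaks covered 6320 bp in the first WT replicate but 96686 bp in the second. At chr11:11830098-11892322 they covered 8092 and 48296 bp, at chr6:84101291-84158952 15847 and 45210 bp, and at chr6:58594898-58649525 3259 and 36982 bp. WT replicate 1 thus covered from 5.15% to 27.5% of these 4 domains, and WT replicate 2 from 67.7% to 78.8%.

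H3K4me3 was used as a further readout of the same loci, within 5 kb of each domain. Its libraries are of the same clonal lines as those of H3K36me3, so the marks are not independent measures of genotype. Whether differences between lines moved both marks together was not tested. Of all joint domains 55.4% had an H3K4me3 peak in at least 1 of the 4 H3K4me3 libraries, as did 74.2% of those that all H3K36me3 libraries listed. The share rose with length, from 36.7% of domains under 5 kb to 78.7% of those of 50 kb or more. Of the longest class 44.0% held more than 1 separate H3K4me3 region, so a joint domain can span several transcription units. Among KO-only domains 61.6% and among WT-only domains 59.1% had no H3K4me3 peak nearby, against 44.6% of all joint domains. These shares were not matched for length. KO-only and WT-only domains were short, with medians of 2618 and 5043 bp, and most joint domains under 5 kb also lacked H3K4me3.

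H3K4me3 called KO-higher by the same rule was more frequent at KO-higher H3K36me3 domains than over all domains. It was found at 30 of 190 (15.8%), against 618 of all 13602 joint domains (4.54%), and WT-higher H3K4me3 at 0. WT-higher H3K36me3 domains held WT-higher H3K4me3 in 24 of 425 cases (5.65%), against 74 of all (0.544%), and KO-higher H3K4me3 in 30 (7.06%). Both directions of H3K4me3 were therefore met at WT-higher domains. The WT-higher direction stood further above its share over all domains (0.544%) than the KO-higher direction did (4.54%). Long domains meet more H3K4me3 peaks, and among joint domains of at least 20 kb the KO-higher H3K4me3 share was 26.2% for KO-higher, 10.9% for WT-higher and 6.69% for all domains. The WT-higher H3K4me3 share at that length was 4.98% for WT-higher, 0% for KO-higher and 0.59% for all domains. No test was run on these shares, since domains of a chromosome are not independent.

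H3K4me3 was called in the direction of H3K36me3 at 3 of the 8 leading KO-higher domains and at 1 of the 8 leading WT-higher ones, and in the opposite direction at none of these 16. At chr17:74239091-74297335, which only KO marked with H3K36me3, H3K4me3 covered 5494 and 7351 bp in KO against 788 and 3433 bp in WT, and was called KO-higher. It was also called KO-higher at chr13:118014238-118066418, with 2653 and 4245 bp against 1590 and 2253 bp, at chr6:137424241-137465662, with 3392 and 2970 bp against 797 and 1326 bp, and at chr12:31951655-32034886. At chr4:111089725-111134361 it was called WT-higher, with 2456 and 3213 bp in WT and 0 and 1914 bp in KO. Other leaders went without: chr16:22058303-22089416 and chr17:49588335-49636076 had no H3K4me3 peak within 5 kb in any library. At chr15:41630112-41693236 H3K4me3 ran against H3K36me3, with 0 and 48 bp in KO versus 2172 and 2838 bp in WT, although it was not called. By replicate number, H3K4me3 covered more base pairs in KO than in WT at 3 leading WT-higher domains, again with no call. The numbers were not taken to pair libraries. Without pairing the genotypes overlapped at these 3 domains, where KO replicate 1 lay below WT replicate 2. These were chr19:28638315-28751730, with 5515 and 13148 bp for KO against 4711 and 13012 bp for WT, chr19:28477876-28631720, with 969 and 2351 bp against 0 and 1909 bp, and chr4:89020545-89150024, with 3965 and 9215 bp against 0 and 4637 bp.

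Few H3K36me3 joint domains held an H3K27me3 peak, and in the few called domains that did, it was listed in the genotype with less H3K36me3. Only 1 and 32 of all joint domains held an H3K27me3 peak for KO, and 7 and 24 for WT. Of the 190 KO-higher domains 2 held H3K27me3 in both WT libraries and in no KO library. Of the 425 WT-higher domains 7 held it in KO replicate 2 and in no WT library. Since KO replicate 1 met only 1 joint domain in all, its 0 of 425 is no measure of the mark's absence there. The zeros of the genotype with more H3K36me3 are weak for the same reason, as the other libraries met only 7, 24 and 32 joint domains. All 7 WT-higher cases rest on KO replicate 2 alone. Whether this direction exceeds what so few overlaps would give was not tested.

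These 9 domains were named after their values were seen. At chr6:49139276-49159460, H3K36me3 covered 2837 and 12496 bp in KO but 0 bp in WT, while H3K27me3 covered 804 and 5557 bp in WT but 0 bp in KO. At chr12:58641397-58644561 the H3K36me3 lengths were 2591 and 2008 bp in KO only, and those of H3K27me3 1137 and 3165 bp in WT only. Both loci thus carried one mark in KO and the other in WT in every library. On the WT-higher side the largest were chr6:38649345-38697910, with 24483 and 42523 bp of H3K36me3 in WT and 4362 bp of H3K27me3 in KO replicate 2, and chr3:121678111-121719947, with 4108 bp. The others were chr3:29904735-29908943, chr3:83570346-83579282, chr6:38819642-38822588, chr15:102756667-102760399 and chr19:59535892-59541061, with 640 to 2232 bp of H3K27me3 in KO replicate 2. Of these 7, chr3:83570346-83579282 alone kept H3K36me3 in KO, over 7054 bp in replicate 2.

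To read the mark along the gene body, domains were oriented by H3K4me3. Of the 3202 joint domains of at least 20 kb listed in every library, 1097 had exactly 1 H3K4me3 region within reach, present in all 4 H3K4me3 libraries and within 5 kb of 1 end. Their median length was 33705 bp. In 3 libraries coverage was lower in the first decile of the length next to H3K4me3, highest in the fifth or sixth, and lowest in the last. KO replicate 1 went from 43.1% through 56.8% to 34.2%, KO replicate 2 from 53.3% through 66.8% to 49.6%, and WT replicate 1 from 53.2% through 66.6% to 42.1%. WT replicate 2 was nearly flat, between 81.9% and 86.3%. Since joint domains take much of their outline from WT replicate 2, lower coverage at the ends in the other libraries follows in part from how the domains were built. KO replicate 2 and WT replicate 1 stayed within 2 percentage points of each other in all but the last decile.

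Along these oriented domains the difference peaks had no position that both replicates of both genotypes favoured. Of the differing base pairs, 37.7% in KO replicate 1 and 23.1% in KO replicate 2 lay in the first 3 deciles, and 36.4% and 42.3% in WT replicates 1 and 2. The last 3 deciles held 25.1% and 45.6% in KO and 29.3% and 27% in WT. KO replicate 2 stood apart, but it had difference peaks in only 29 oriented domains, against 108 to 119 in the other libraries.

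**Figure D4:**
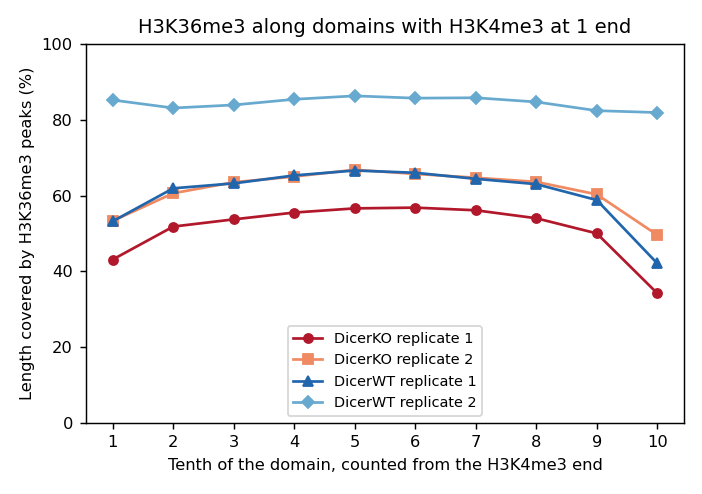
Share of length covered by H3K36me3 peaks (%) in each decile of the length of 1097 domains with H3K4me3 at 1 end, counted from that end, 1 line per library. Coverage is lower at both ends in 3 libraries and nearly flat, between 81.9% and 86.3%, in WT replicate 2, from which the joint domains take much of their outline.

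Differing domains were unevenly spread over the chromosomes. On chromosome 9, 96 of 811 joint domains (11.8%) were WT-higher and 3 KO-higher, and peaks there covered 3.01 and 4.33 Mb in KO, with 6.45 and 12.4 Mb in WT. The log2 ratio of KO to WT there was -1.10 in replicate 1 and -1.52 in replicate 2. Over all chromosomes together these ratios were -0.292 and -0.673. Chromosomes 19, 10 and 4 followed with 6.88%, 5.66% and 5.02% of their domains WT-higher. On chromosome 12 the lean was the other way, with 28 of 550 domains (5.09%) KO-higher and 4 WT-higher, although its covered length was higher in KO in replicate 1 only, with log2 ratios of 0.31 and -0.54. Without chromosomes 9 and 12, an alternative chosen after seeing the data, 159 KO-higher and 325 WT-higher domains were left.

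**Figure D5:**
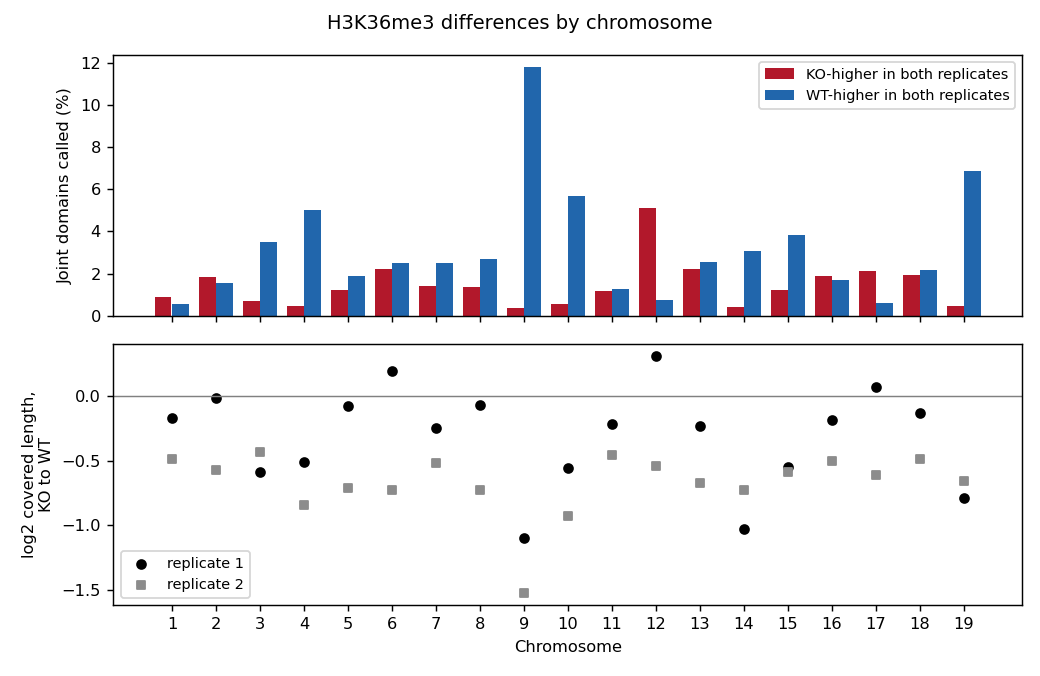
Share of joint domains (%) called KO-higher or WT-higher in both replicates on each chromosome (top), and log2 ratio of covered length of KO to WT in replicates 1 and 2 (bottom). Chromosome 9 has the largest WT-higher share, 11.8%, and the lowest ratios, and chromosome 12 the largest KO-higher share, 5.09%.

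Calls of the same direction also lay side by side. Where a called domain's next neighbour was called too, both had the same direction in 112 pairs and opposite directions in 5. Gaps of 5 kb or more were not closed, so neighbouring domains can be pieces of a single longer marked stretch. How many pairs were such pieces was not tested, and no expected number of pairs was derived. The counts of pairs and clusters therefore do not stand for that many separate loci. Joined where less than 100 kb apart, the KO-higher domains fell into 157 clusters and the WT-higher ones into 319. The cluster with the most domains, 6, spanned chr6:38649345-38822588, where H3K36me3 covered 32.2 and 66.0 kb in WT and 0 kb in both KO libraries. On chromosome 19 a cluster of 4 domains, chr19:28331409-28751730, was covered over 166 and 348 kb in WT, 0 kb in KO replicate 1 and 44.1 kb in KO replicate 2, and includes the leading pair above. At chr4:57581794-57839269, 5 WT-higher domains were covered over 121 and 170 kb in WT and 1.45 and 33.8 kb in KO. The only KO-higher cluster of 4, chr8:3428218-3618560, had 43.7 and 54.6 kb in KO compared with 23.4 and 52.8 kb in WT, so that WT replicate 2 reached nearly the level of KO replicate 2.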

How the data were processed

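H3K36me3 ChIP-seq was analysed from 4 peak lists against whole-cell extract and 4 difference lists, with H3K4me3 and H3K27me3 lists of the same lines as further readouts. Bowtie 0.12.7, MACS and the build mm9 are named, per the submitters' processing notes. Lists were made per library, per the file names. The authors gave every peak a score, 80 or above in the H3K36me3 lists; no source at hand states its formula, and it served for filters and for ranks inside 1 list. Depth is unknown.

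Chromosomes 1 to 19 were kept, which left out 389 to 1122 H3K36me3 peaks per library on other sequences. Peaks less than 5 kb apart were joined and an overlap of 1 bp counted, in Python 3.11.15. Log2 totals of the genotypes were compared by exact permutation (two-sided), whose p-values measure only the spread between these libraries. Joining and calling were tested on simulated lists. Members and rules were chosen with earlier results of these data known. The named domains are the 8 per direction with the most differing base pairs in the lesser replicate, the 4 longest KO-only and WT-only domains and the 3 longest joint domains. Alternatives were other join distances, stricter scores, chromosome X, each library left out, larger overlaps, shared or longer domains only, lists of equal length, and chromosomes left out. The planned gene lists and cell type markers were not used here, since they need an mm9 annotation. H3K27me3 difference lists were not used.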

Additional observations from a re-analysis of the deposited data

How the results depend on the processing

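The log2 ratios of covered length and of median domain length stayed below 0 under every alternative run. That of domain number, -0.09, turned to 0.44 with lists of equal covered length. With each library left out in turn, the ratios ranged from -0.84 to -0.13 for covered length, from -0.18 to 0.0033 for domain number (above 0 without KO replicate 1, and 0.0017 without WT replicate 2) and from -0.62 to -0.16 for median length. With the replicate number as a block, an exact sign-flip test over 2 pairs left the ratios at -0.48, -0.09 and -0.39, each with p = 0.5, the smallest it allows. The numbers were not taken to pair the samples: deviations of same-numbered libraries from their group means correlated at 0.08 over the 13602 joint domains (log2 of base pairs + 500), and no label says what a number stands for.

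Counts moved more. Scores of at least 160 gave 65 KO-higher and 149 WT-higher domains, a 10% overlap 269 WT-higher, and domains listed in all 4 libraries 81 and 153. Lists against extract of equal covered length, with the difference lists uncut, gave 238 WT-higher, 648 KO-only and 142 WT-only domains. WT-only domains numbered 1235 and 448 with joining below 2 and 10 kb. Domains of at least 5 kb left 45 KO-only and 377 WT-only. With each library left out, KO-higher ranged from 188 to 1069, WT-higher from 425 to 1814, KO-only from 195 to 721 and WT-only from 958 to 3496. Adding chromosome X or leaving out chromosome 9 moved no count by over 1.5 times. In all, 58 of 83 alternative values kept their direction or stayed within 1.5 times of the main count.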

Other observations

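Some of the longest stretches of H3K36me3 were present in a single library, beside the chr4:64787966-65018899 domain of WT replicate 2. Those named here were chosen with their values in view. At chr4:63620006-63689839, peaks covered 69312 of 69834 bp in WT replicate 1 and 0 bp in the other 3 libraries. At chr9:67118401-67246152 they covered 98210 bp in WT replicate 2 alone. The KO libraries had shorter examples: chr16:22987513-23022778 was covered over 18866 bp in KO replicate 2 alone and chr3:79708424-79733128 over 13735 bp in KO replicate 1 alone. Each was also in the difference list of its library, over 69312, 97146, 18866 and 13735 bp. H3K4me3 was listed within 5 kb of only 1 of these 4, over 1030 bp in KO replicate 2 at the chromosome 16 domain. Whether the replicates are different clones is not stated in the labels.

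The X chromosome, left out of the counts above, held 360 and 743 H3K36me3 peaks in KO replicates 1 and 2 and 1075 and 1080 in WT. As shares of all peaks on chromosomes 1 to 19 and X these were 1.08% and 2.07% in KO and 2.78% and 2.84% in WT.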
